A study of Mus musculus with 8 samples.

Results

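The constitutive proteasome genes were taken from the gene table of mouse hearts as every protein-coding row whose symbol starts with Psm, followed by a letter from a to g and a number. The immunoproteasome genes Psmb8, Psmb9 and Psmb10 were set apart. This gave 47 genes of the 23045 in the table, and all 47 were among the 20313 genes tested. Of these, 45 encode subunits, assembly chaperones or regulators of the proteasome. The other two, Psmc3ip and Psme3ip1, carry the symbol because their proteins bind a subunit or an activator. The genes lie on 16 chromosomes, with 10 of them on chromosome 11.

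The study deleted Mettl3, the gene of the methyltransferase that places N6-methyladenosine on RNA, to ask what this mark does in the formation of triadin transcripts and the choice of polyA sites in the heart. Here the same libraries were used to compare the levels of proteasome transcripts. The WT group was 4 samples of Mettl3 lox/lox mice, in which the gene is flanked by loxP sites but no Cre is present. The Mettl3 KO group was 4 samples of Mettl3 lox/lox mice that also carried alphaMHC-MerCreMer, a tamoxifen-activated Cre recombinase made in cardiomyocytes. Per the study's methods, adult mice of both genotypes were given tamoxifen. The promoter limits the deletion to cardiomyocytes, and no group controls for active Cre alone. Total RNA of the heart was sequenced as 1 library per sample and the normalized counts of each library were given in 1 column of the table.

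The proteasome is the protease that degrades ubiquitin-tagged proteins in the cytosol and nucleus. Its core particle, called 20S, is a barrel of stacked rings, in which outer alpha rings gate the entry and inner beta rings hold the protease sites. The regulatory particle, called 19S, caps the barrel. Its base unfolds substrates with a ring of ATPases and its lid removes ubiquitin. Activators such as PA28 and PA200 can take the place of the regulatory particle. In heart muscle the proteasome takes part in the turnover of sarcomere proteins. When proteasome activity falls short, the transcription factor NRF1 (gene Nfe2l1) raises most subunit genes together, through antioxidant response elements in their promoters.

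To show where this element lies, the RefSeq promoters of the mouse (build GRCm38.p6, 250 bases before to 50 after each start site) were searched for its core TGACNNNGC on both strands. Of the 47 genes, 39 had an entry, and 6 of them held the core (15.4%). Of the 43 promoters of these genes 14.0% held it, beside 12.4% of all 32851 promoters in the collection. The 6 stretches follow, 5′ to 3′ on the strand that carries the core, with the core in capitals. They are shown because they include the gene that fell, Psme4, and the genes of 2 of the 3 catalytic subunits, Psmb5 and Psmb6.
Psmb5, chr14:54618024-54618052, minus strand: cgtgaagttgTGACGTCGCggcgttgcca
Psmb6, chr11:70525338-70525366, plus strand: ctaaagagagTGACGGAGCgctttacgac
Psmc6, chr14:45329587-45329615, minus strand: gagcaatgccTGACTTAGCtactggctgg
Psmd12, chr11:107479278-107479299, minus strand: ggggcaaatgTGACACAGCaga
Psmd9, chr5:123228149-123228177, plus strand: atctagccggTGACCCCGCccacttccaa
Psme4, chr11:30771758-30771786, minus strand: gctcttctggTGACGCTGCagccgcagcg

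In Psmb6 the core ends 1 base before the start site, in Psmb5 it lies 47 to 39 bases before it, and in Psme4 it spans the start site. CCAAT, the box read by NF-Y, stood in the promoters of 14 of the 39 genes (35.9%) and in 32.6% of their promoters, beside 37.4% of all promoters. A match of letters is a description and was not tested as a binding site. Both shares were close to those of all promoters.

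As a check of the labels, Mettl3 itself had normalized read counts of 105, 133, 118 and 107 in WT and of 74, 68, 69 and 78 in Mettl3 KO hearts. The log2 fold change, given throughout as Mettl3 KO minus WT on log2(value + 1), was -0.67 (SE 0.10, limma with Benjamini-Hochberg adjustment, adjusted p = 0.000184). The groups did not overlap. The transcript was not removed from whole-heart RNA, which also holds RNA of cells without Cre.

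Most proteasome genes of the Mettl3 KO hearts lay close to their WT level. Psme4, which encodes the activator PA200, fell to 83.1% of WT, and Psmd7, a subunit of the 19S lid, rose to 120.9% of WT. The other 45 genes did not pass the test. Called genes, those with an adjusted p under 0.05 in the limma fit over all genes, thus made up 4.26% of the proteasome genes, beside 7.91% of all genes tested. By direction, 1 proteasome gene was called higher, beside 4.72% of all genes, and 1 was called lower, beside 3.19%. The labels do not say whether samples of a group came from separate litters or cages, and p-values measure only the spread between these samples. In bulk tissue, fewer cells of a type and less RNA per cell cannot be told apart.

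The median log2 fold change over the 47 genes was -0.03, beside -0.01 over all genes tested. Their changes ranged from -0.27 in Psme4 to 0.32 in Psmc3ip, a gene with low values that was not called and that lay between 0.15, without WT replicate 2, and 0.49, without Mettl3 KO replicate 4, when single libraries were left out. Values were below 0 for 30 of 47 genes (63.8%), beside 51.8% of all genes. The median size of the change, regardless of direction, was 0.07 for the proteasome genes and 0.17 over all genes. At an unadjusted p under 0.05, 7 genes differed (14.9%), beside 20.6% of all genes. The WT and Mettl3 KO values did not overlap for 6 genes (12.8%), namely Psma7, Psmd1, Psmd2, Psmd7, Psmd5 and Psme4, beside 11.5% of all genes. The set holds protein-coding genes only. Of the 14392 protein-coding genes tested 14.2% did not overlap, 24.4% had an unadjusted p under 0.05, and 915 were called higher and 525 lower, so that the proteasome genes were below the protein-coding share in each of these but were not tested against it. For values below 0 the protein-coding share was 48.9%, lower than that of the proteasome genes.

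**Figure D1:**
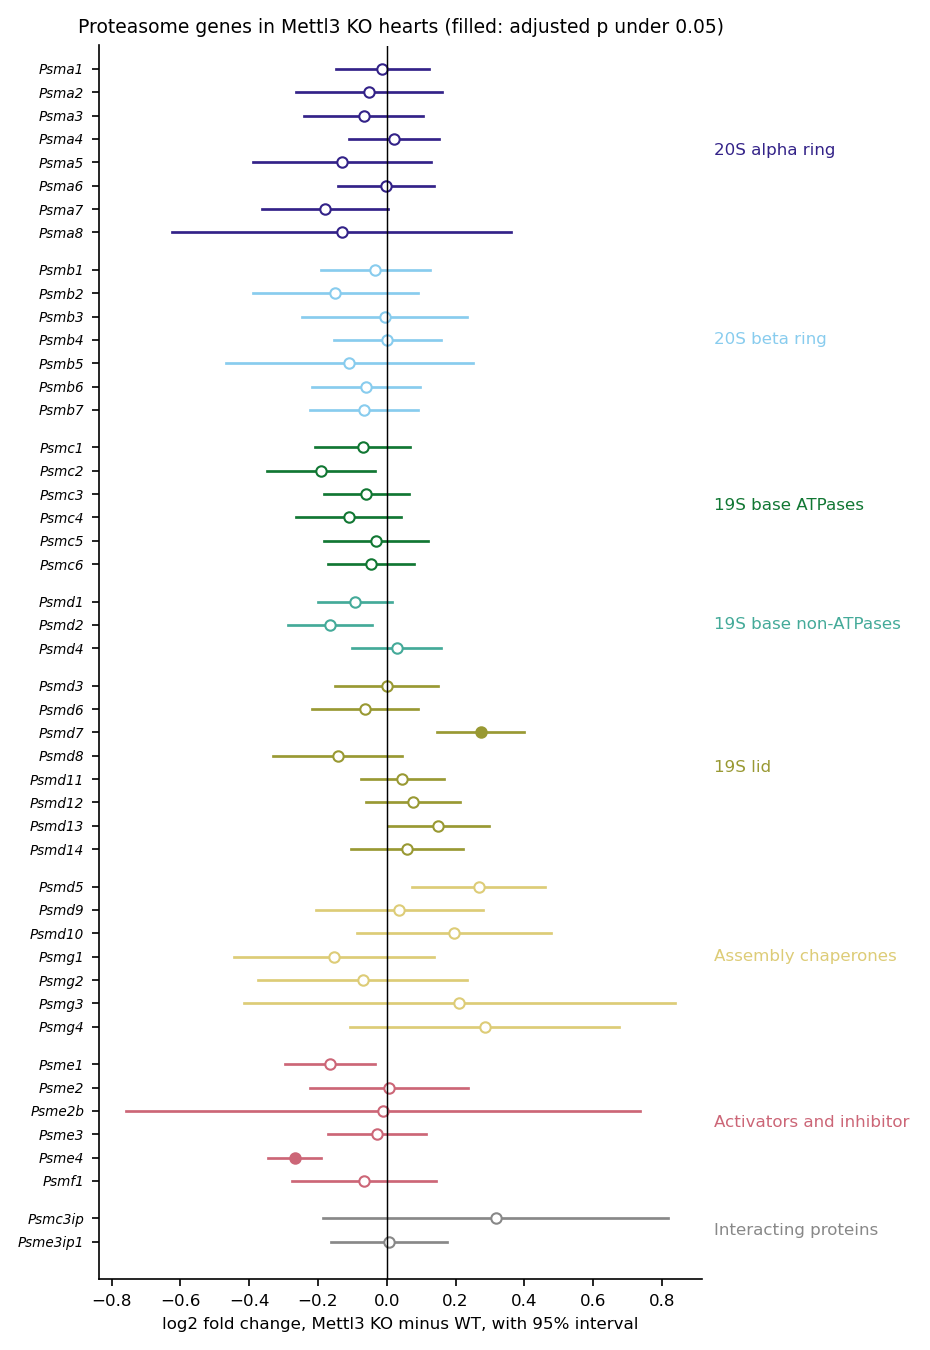
Log2 fold change (x axis, Mettl3 KO minus WT) of each of the 47 proteasome genes (rows, grouped by subcomplex), with the 95% interval of the limma fit as a line and filled points for an adjusted p under 0.05. Psmd7 at 0.27 and Psme4 at -0.27 are the filled points, and the widest intervals belong to genes with low values such as Psme2b.

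How far the uncalled genes could have moved was read from their 95% intervals. For 30 of the 45 the whole interval lay within 0.32 of no change on the log2 scale, and for 40 it lay within 0.58. The 5 genes with wider intervals were Psma8, Psmg3, Psmg4, Psme2b and Psmc3ip, whose mean values in WT ranged from 7.5 in Psme2b to 26.5 in Psmg4.

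The alpha ring of the core particle is encoded by Psma1 to Psma7, with Psma8 as a form made mainly in testis. None of the 8 genes passed the test. Psma7 had the lowest fold change. Its values were 111, 120, 108 and 118 in WT, against 105, 105, 97 and 96 in Mettl3 KO hearts. These did not overlap, but the log2 fold change of -0.18 (SE 0.09) had an adjusted p of 0.256 in limma. Psma4 had the highest one. It was at 274, 282, 271 and 307 in WT, against 305, 274, 295 and 276 in Mettl3 KO hearts, with overlapping groups and a log2 fold change of 0.02 (adjusted p = 0.917 in limma). Psma8 was low in every heart, at 14 to 20 in WT, against 13 to 20 in Mettl3 KO. Psma1, Psma2, Psma3, Psma5 and Psma6 lay between Psma7 and Psma4, from -0.13 in Psma5 to -0.0027 in Psma6.

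The beta ring carries the protease sites in 3 of its subunits. Psmb5, the chymotrypsin-like site, had values of 27, 34, 35 and 26 in WT, against 27, 30, 27 and 28 in Mettl3 KO hearts. Psmb6, the caspase-like site, was at 197, 196, 186 and 177 in WT, against 183, 183, 197 and 163 in Mettl3 KO hearts. Psmb7, the trypsin-like site, was at 165, 173, 169 and 172 in WT, against 157, 181, 157 and 155 in Mettl3 KO hearts. The groups overlapped for each of the 3. Their log2 fold changes were -0.11 for Psmb5 (95% interval -0.47 to 0.25, adjusted p = 0.803 by limma), -0.06 for Psmb6 (-0.22 to 0.10, adjusted p = 0.736) and -0.07 for Psmb7 (-0.22 to 0.09, adjusted p = 0.709). Single libraries moved these small values. Psmb5 was at -0.0405 without WT replicate 3 and -0.18 without WT replicate 4, Psmb6 at -0.0097 without Mettl3 KO replicate 4 and -0.10 without Mettl3 KO replicate 3, and Psmb7 at -0.12 without Mettl3 KO replicate 2.

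Of the structural beta subunits, Psmb2 was the lowest by fold change and Psmb4 the highest. Psmb2 had values of 62, 70, 66 and 64 in WT, against 55, 65, 56 and 60 in Mettl3 KO hearts, a log2 fold change of -0.15 (SE 0.12, adjusted p = 0.530 by limma). Psmb4 had the same mean of 156.8 in both groups, from 149, 155, 153 and 170 in WT, against 159, 155, 159 and 154 in Mettl3 KO hearts. Psmb1 and Psmb3 lay between them, at -0.03 and -0.01. No beta gene passed the test, and no beta gene had groups that did not overlap.

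The ATPases of the 19S base, Psmc1 to Psmc6, form the ring that threads substrates into the core. None of the 6 passed the test. All 6 had a log2 fold change below 0, from -0.19 in Psmc2 to -0.03 in Psmc5, although Psmc5 was at 0.03 without Mettl3 KO replicate 1 and at -0.21 (adjusted p = 0.315 by limma) with an index of atrial genes as a covariate. Psmc2 had values of 209, 193, 183 and 220 in WT, against 183, 177, 180 and 163 in Mettl3 KO hearts. The highest Mettl3 KO value equalled the lowest WT value, and the adjusted p was 0.134 in limma (SE 0.08). Psmc1, Psmc3, Psmc4 and Psmc6 lay between -0.11 in Psmc4 and -0.05 in Psmc6. Psmc5 was at 198, 201, 190 and 204 in WT, against 172, 199, 206 and 201 in Mettl3 KO hearts. Here the spread came from a single Mettl3 KO heart with the lowest value.

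The base also holds the scaffold subunits Psmd1 and Psmd2 and the ubiquitin receptor Psmd4. Psmd2 had values of 453, 440, 491 and 471 in WT, against 438, 370, 419 and 429 in Mettl3 KO hearts. The groups were apart by 2 units between their nearest values, and the log2 fold change was -0.17 (SE 0.06, adjusted p = 0.0954 by limma). With the atrial covariate it was -0.06 (adjusted p = 0.773). Psmd1 was at 428, 428, 428 and 446 in WT, against 390, 417, 423 and 394 in Mettl3 KO hearts, also without overlap, at -0.09 (adjusted p = 0.346). Psmd4 was at 272, 297, 292 and 289 in WT, against 288, 285, 320 and 281 in Mettl3 KO hearts. Its groups overlapped, with a log2 fold change of 0.03 (adjusted p = 0.864).

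The lid held the gene that rose. Psmd7 (RPN8, ENSMUSG00000039067, chromosome 8, 108307013 to 108315096, minus strand, mm39) encodes the partner of the lid deubiquitinase PSMD14. Its values were 246, 236, 231 and 255 in WT, against 302, 292, 285 and 291 in Mettl3 KO hearts. Every Mettl3 KO heart lay above every WT heart, with means of 242 ± 10.7 and 292.5 ± 7.05 (SD, n = 4 each). The log2 fold change was 0.27 (SE 0.06, 95% interval 0.15 to 0.40, adjusted p = 0.00591 by limma). With the atrial index as a covariate it was 0.28, but the adjusted p was 0.0995, and without a mean-variance trend the adjusted p was 0.0817. The atrial index itself differed between the genotypes, which makes that fit less precise. In the single Mettl3 KO heart in which the atrial marker Bmp10 was listed at 0, replicate 1, Psmd7 was at 302, which was not tested.

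The other 7 lid genes did not pass the test. Psmd8 (RPN12), the lowest of them, was at 128, 150, 148 and 162 in WT, against 149, 135, 121 and 127 in Mettl3 KO hearts, with a log2 fold change of -0.14 (adjusted p = 0.415 by limma) that was 0.02 with the atrial index as a covariate and -0.0945 without WT replicate 4. Psmd13 (RPN9) was second to Psmd7, at 195, 201, 205 and 189 in WT, against 237, 218, 199 and 224 in Mettl3 KO hearts. One Mettl3 KO heart fell within the WT range, and the log2 fold change of 0.15 had an adjusted p of 0.231. Psmd14, the deubiquitinase itself, was at 191.2 ± 18.2 in WT, against 198.8 ± 11.8 in Mettl3 KO hearts (SD, n = 4 each). Psmd3, Psmd6, Psmd11 and Psmd12, which share the scaffold of the lid with Psmd8 and Psmd13, ranged from -0.06 in Psmd6 to 0.08 in Psmd12.

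**Figure D2:**
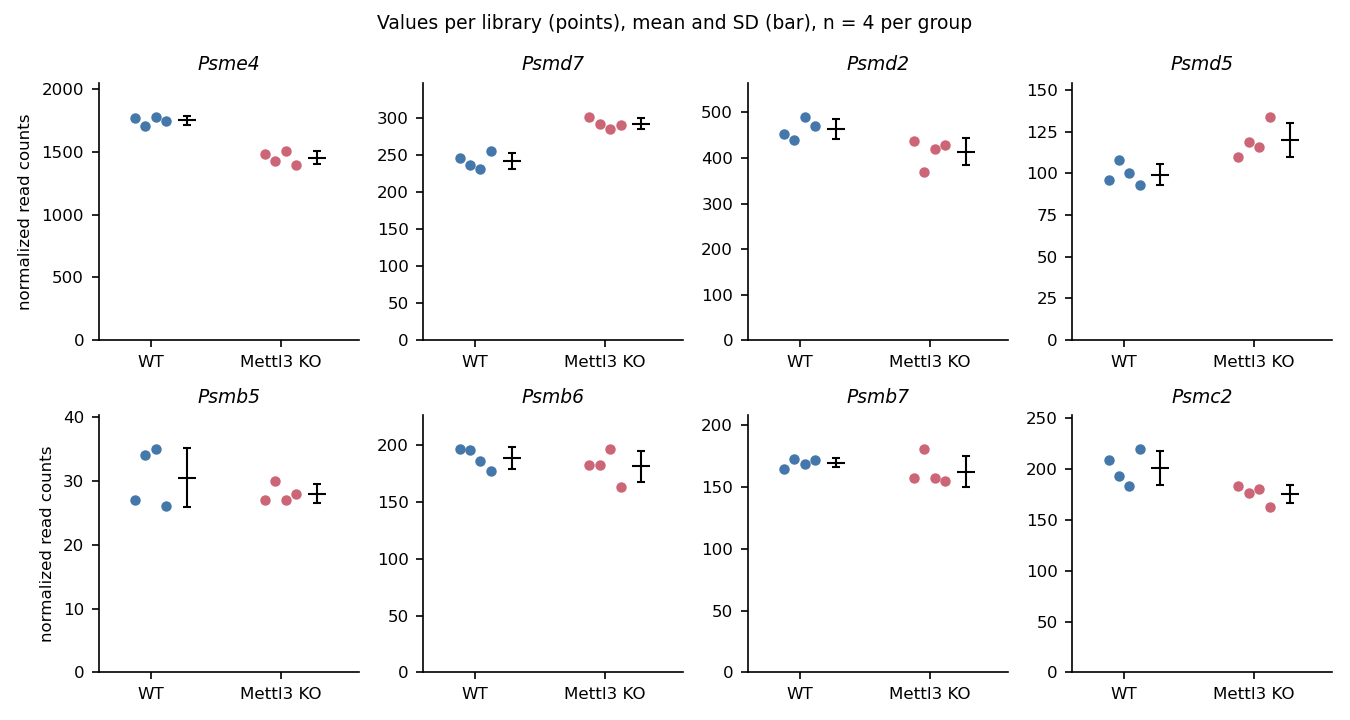
Normalized read counts (y axis, from 0) of 8 proteasome genes in each library, WT in blue and Mettl3 KO in red, with the mean and SD of 4 libraries as bars. The groups are apart for Psme4, Psmd7, Psmd2 and Psmd5 and overlap or touch for the catalytic subunits and Psmc2.

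The assembly chaperones guide the rings together and leave the finished particle. Psmg1 to Psmg4 act on the core particle, and Psmd5, Psmd9 and Psmd10 (gankyrin) on the ATPase ring. None of the 7 genes passed the test, and 5 had a log2 fold change above 0. Psmd5 had values of 96, 108, 100 and 93 in WT, against 110, 119, 116 and 134 in Mettl3 KO hearts. The groups did not overlap, and the log2 fold change was 0.27 (SE 0.09), or 0.15 (adjusted p = 0.651) with the atrial covariate. Without that covariate its adjusted p was 0.0849 in limma, the lowest among the uncalled proteasome genes, while that of Psmd7 was the highest among the called ones.

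Psmg4 had the highest fold change among the chaperones, with values of 21, 21, 35 and 29 in WT, against 31, 31, 32 and 33 in Mettl3 KO hearts. The WT hearts spread around all 4 Mettl3 KO hearts, and the log2 fold change of 0.28 had an SE of 0.19 (adjusted p = 0.444 by limma). Psmg1 had the lowest one, -0.15 (adjusted p = 0.612), from 44, 52, 56 and 63 in WT, against 49, 53, 48 and 42 in Mettl3 KO hearts. Psmg1 was at -0.24 without WT replicate 1 and -0.0743 without WT replicate 4, and Psmg4 at 0.19 without either WT replicate 1 or WT replicate 2. Psmd10 was at 42.2 ± 3.59 in WT, against 48.5 ± 3.00 in Mettl3 KO hearts (SD, n = 4 each), with an adjusted p of 0.469. Most chaperone genes had low values, with WT means between 10.2 in Psmg3 and 99.2 in Psmd5. Psmd9, Psmg2 and Psmg3 were at 0.04, -0.07 and 0.21.

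Among the activators and the inhibitor, Psme4 was the gene that fell. Psme4 (ENSMUSG00000040850, chromosome 11, 30721726 to 30830361, plus strand, mm39) encodes PA200, a large nuclear protein that caps the core particle and is linked to the breakdown of acetylated histones. Its values were 1771, 1707, 1783 and 1747 in WT, against 1487, 1430, 1510 and 1396 in Mettl3 KO hearts. The highest Mettl3 KO heart was well below the lowest WT heart, and the means were 1752 ± 33.5 and 1456 ± 52.1 (SD, n = 4 each). The log2 fold change was -0.27 (SE 0.04, 95% interval -0.34 to -0.19, adjusted p = 5.83e-05 by limma). It lay between -0.29 and -0.22 in all 18 alternative analyses and was called in 17 of them. The exception, the fit without a mean-variance trend, gave an adjusted p of 0.0769.

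Psme4 also took the largest share of the proteasome reads. It held 18.4% ± 0.484 of the summed values of the 47 genes in WT, against 16.0% ± 0.307 in Mettl3 KO hearts (SD, n = 4 each). Longer transcripts give more reads, and its longest coding transcript has 6491 bases, the most of the 47 genes. Of the 14392 protein-coding genes tested, 1626 (11.3%) had a transcript at least as long. Their median log2 fold change was -0.0046, and 6.58% of them were called lower and 10.2% higher, beside 3.28% and 5.88% of the shorter ones.

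The remaining activators did not pass the test. Psme1, which forms the cytosolic PA28 ring with Psme2, was at 351, 350, 366 and 377 in WT, against 329, 304, 357 and 300 in Mettl3 KO hearts. One Mettl3 KO heart lay within the WT range, and the log2 fold change was -0.17 (SE 0.06, adjusted p = 0.118 by limma). Its partner Psme2 had the highest fold change of this group, 0.01 (adjusted p = 0.986), from 101, 90, 79 and 82 in WT, against 103, 85, 88 and 78 in Mettl3 KO hearts. Psme3, the nuclear PA28 gamma, was at -0.03, and Psmf1, the inhibitor PI31, at -0.07. Psme2b, a near copy of Psme2, was between 4 and 13 in all hearts. Reads that map to several places were dropped by the authors, so the values of this pair are uncertain.

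The genes of the interacting proteins were not called either. Psmc3ip, whose protein HOP2 acts in meiotic recombination, was at 21, 12, 16 and 22 in WT, against 23, 24, 27 and 15 in Mettl3 KO hearts. The groups overlapped, and the log2 fold change of 0.32 had an SE of 0.24 (adjusted p = 0.523 by limma). Psme3ip1, which binds PA28 gamma, was at 126, 119, 133 and 120 in WT, against 123, 126, 123 and 128 in Mettl3 KO hearts, with a log2 fold change of 0.01 (adjusted p = 0.982).

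To compare whole subcomplexes, the values of their genes were summed in each library. These sums weight genes by their level and are a description without a test. The summed 20S core genes were at 2031.8 ± 31.9 in WT, against 1974.8 ± 48.6 in Mettl3 KO hearts, or 97.2% of WT, and the 19S genes at 4522 ± 105 and 4453 ± 49.5, or 98.5% of WT (SD, n = 4 each). In both cases the hearts of the groups overlapped. The summed activators and inhibitor were at 2485.2 ± 37.6 in WT, against 2143.5 ± 84.5 in Mettl3 KO hearts, 86.2% of WT, without overlap. Psme4 makes up most of this sum, and the other 5 genes came to 93.8% of WT, from 729, 722, 723 and 759 in WT, against 695, 677, 729 and 650 in Mettl3 KO hearts, with 1 Mettl3 KO heart within the WT range. All 47 genes together came to 95.4% of WT, from 9387, 9540, 9523 and 9681 in WT, against 9173, 9079, 9258 and 8882 in Mettl3 KO hearts. Without Psme4 the remaining 46 came to 98.2%, and the groups then overlapped.

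The balance of the parts was read from ratios of these sums. The 19S to 20S ratio was 2.23 ± 0.0563 in WT, against 2.26 ± 0.0347 in Mettl3 KO hearts, and the alpha to beta ratio 1.32 ± 0.0401 and 1.33 ± 0.0315 (SD, n = 4 each). Both overlapped between the groups. Within the 19S particle, the ATPase genes came to 94.8% of WT and the lid genes to 104%. Most of the difference in the lid sum came from Psmd7, without which the lid genes were at 102% of WT (1511 to 1622 in WT, 1581 to 1621 in Mettl3 KO hearts, overlapping). The ratio of ATPases to lid was 0.845, 0.824, 0.833 and 0.878 in the WT and 0.760, 0.766, 0.790 and 0.75 in the Mettl3 KO hearts. The 2 groups did not overlap in this ratio, which was chosen with the values known and was not tested. Without Psmd7 it was 0.944 to 1.0197 in WT, against 0.888 to 0.933 in Mettl3 KO hearts.

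**Figure D3:**
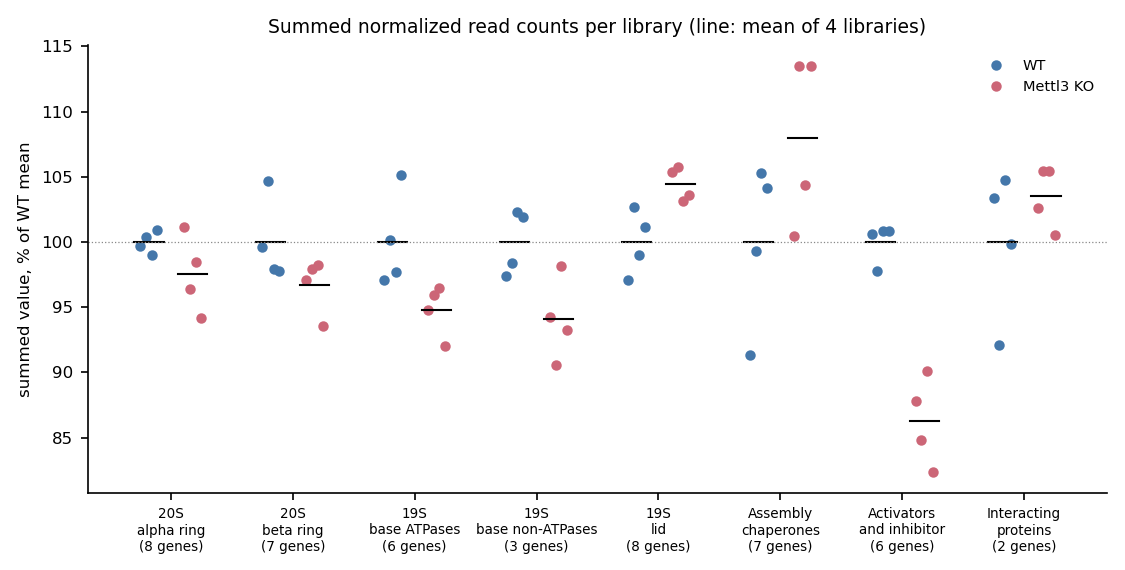
Summed normalized read counts of each subcomplex per library (y axis, % of the WT mean, not from 0), WT in blue and Mettl3 KO in red, with lines at the means of 4 libraries. The activators and inhibitor lie at 82.3% to 90.1% in Mettl3 KO hearts and the lid lies at 103% to 106%.

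Levels of different genes were compared per kilobase of the longest coding transcript (GENCODE M21), which understates genes whose heart transcript is shorter. Per kilobase, the WT means ran from 8.96 for Psme2b to 325 for Psme1, with Psme4 second at 270. The median was 152 for the ATPases, 157 for the base scaffold and receptor genes, 119 for the lid, 103 for the beta ring, 74.1 for the alpha ring and 29.5 for the chaperones. Genes of particles that hold each subunit in the same number thus differed in level. They differed least among the base scaffold and receptor genes (139 in Psmd1 to 164 in Psmd4) and more among the ATPases (113 in Psmc2 to 178 in Psmc6). The alpha ring was wider, from 31.9 in Psma2 to 243 in Psma4, leaving out Psma8 at 10.05. Its low end rests on Psma2, divided by a transcript of 2911 bases, and Psma3 was next at 48.5. In the beta ring Psmb5 was at 33.9 and Psmb6 at 237 per kilobase. The median coefficient of variation between hearts was 5.86% in WT, against 6.61% in Mettl3 KO.

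**Figure D4:**
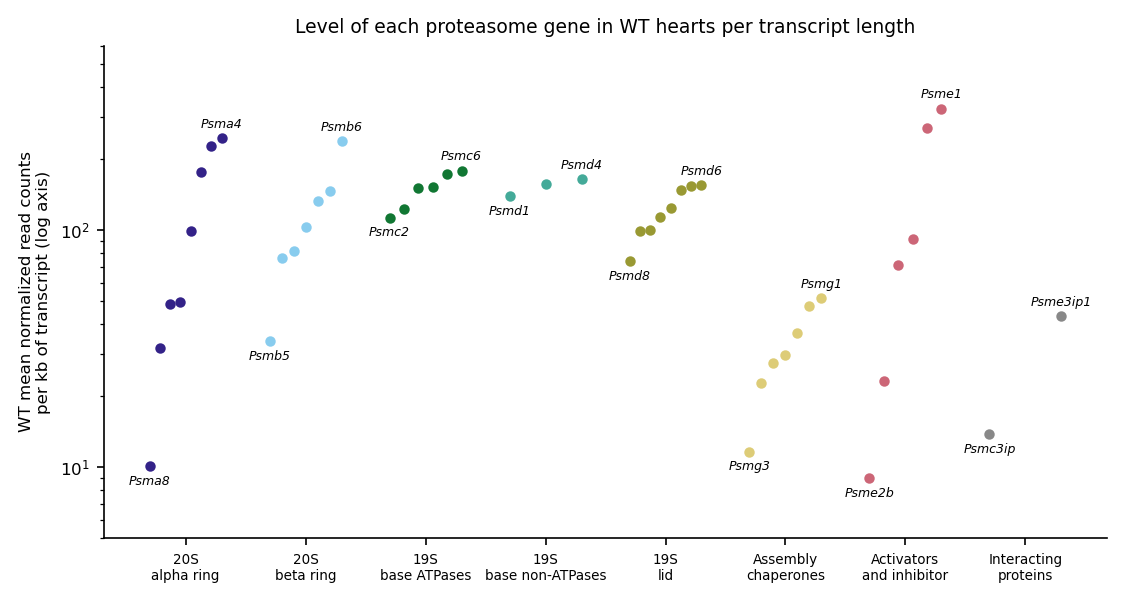
WT mean normalized read counts per kilobase of transcript (y axis, log scale) of the 47 proteasome genes, 1 point per gene, in columns by subcomplex with the lowest and highest gene named. The ATPases lie close together, and Psma8, Psmg3 and Psme2b are at the bottom of their groups.

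The other genes of the pathway were taken from 5 lists of 43 genes, of which 40 were tested. Of these 40, 1 was called higher and 3 lower, beside 7.91% of all genes in either direction. Of 11 proteasome partners outside the symbol rule, such as the ubiquitin receptor Adrm1 and the deubiquitinases Usp14 and Uchl5, 1 was called lower and none higher. This was Ecpas (ECM29), which tethers the 19S to the 20S particle. Ecpas was at 1470, 1482, 1499 and 1450 in WT, against 1372, 1320, 1352 and 1260 in Mettl3 KO hearts. All Mettl3 KO hearts were lower, with a log2 fold change of -0.15 (SE 0.04, adjusted p = 0.0129 by limma), which was -0.09 (adjusted p = 0.406) with the atrial index as a covariate. Without a mean-variance trend the adjusted p was 0.232.

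Of the immunoproteasome genes, which replace the catalytic beta subunits in immune cells and after interferon, Psmb10 rose. It replaces Psmb7 and was at 87, 81, 64 and 83 in WT, against 93, 124, 116 and 126 in Mettl3 KO hearts. The groups did not overlap, and the log2 fold change was 0.54 (SE 0.12, adjusted p = 0.00461 by limma). With the atrial index as a covariate it was 0.13 (adjusted p = 0.724), and without a mean-variance trend the adjusted p was 0.101. The Mettl3 KO heart nearest to WT, replicate 1, was also the one with Bmp10 at 0. This is 1 heart, and the match was not tested. Psmb8 was at 31, 55, 45 and 56 in WT, against 60, 37, 39 and 36 in Mettl3 KO hearts, and Psmb9 at 24, 19, 22 and 15 and at 29, 12, 17 and 17. Both overlapped, with log2 fold changes of -0.11 (adjusted p = 0.814) and -0.14 (adjusted p = 0.838), which turned to 0.36 and 0.45 with the atrial covariate. Psmb8 was at -0.29 without WT replicate 1, -0.28 without Mettl3 KO replicate 1 and -0.0161 without WT replicate 4.

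The 11 tested regulators of proteasome gene transcription held 1 called gene, lower, and no higher one. Nfe2l1 (NRF1) was at 1260, 1308, 1302 and 1301 in WT, against 1362, 1324, 1427 and 1314 in Mettl3 KO hearts. All Mettl3 KO hearts were above WT, but the log2 fold change was 0.07 (SE 0.04, adjusted p = 0.337 by limma), and 0.0445 without Mettl3 KO replicate 3. Nfe2l2 (NRF2), which binds the same element, was at 259, 243, 271 and 230 in WT, against 299, 272, 277 and 297 in Mettl3 KO hearts, again without overlap, at 0.19 (SE 0.07, adjusted p = 0.0820). Syvn1 (HRD1), the ubiquitin ligase that sends NRF1 to degradation, was the called gene. It was at 107, 87, 97 and 96 in WT, against 69, 77, 81 and 70 in Mettl3 KO hearts, a log2 fold change of -0.38 (SE 0.10, adjusted p = 0.0264), and was called in 10 of 18 alternatives.

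None of the 5 genes of ubiquitin and its activation passed the test, with log2 fold changes from -0.10 in Uba1, the main ubiquitin-activating enzyme, to 0.15 in Rps27a, which encodes ubiquitin fused to a ribosomal protein. Of the 10 tested genes for delivery of substrates, 1 was called lower. Ubqln1, a shuttle that binds ubiquitinated proteins and the proteasome, was at 308, 308, 341 and 310 in WT, against 263, 294, 277 and 266 in Mettl3 KO hearts (log2 fold change -0.20, adjusted p = 0.0449 by limma). The groups did not overlap, but the gene lay at the threshold and was called in 8 of 18 alternatives. The segregase Vcp was at -0.09 (adjusted p = 0.405).

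**Figure D5:**
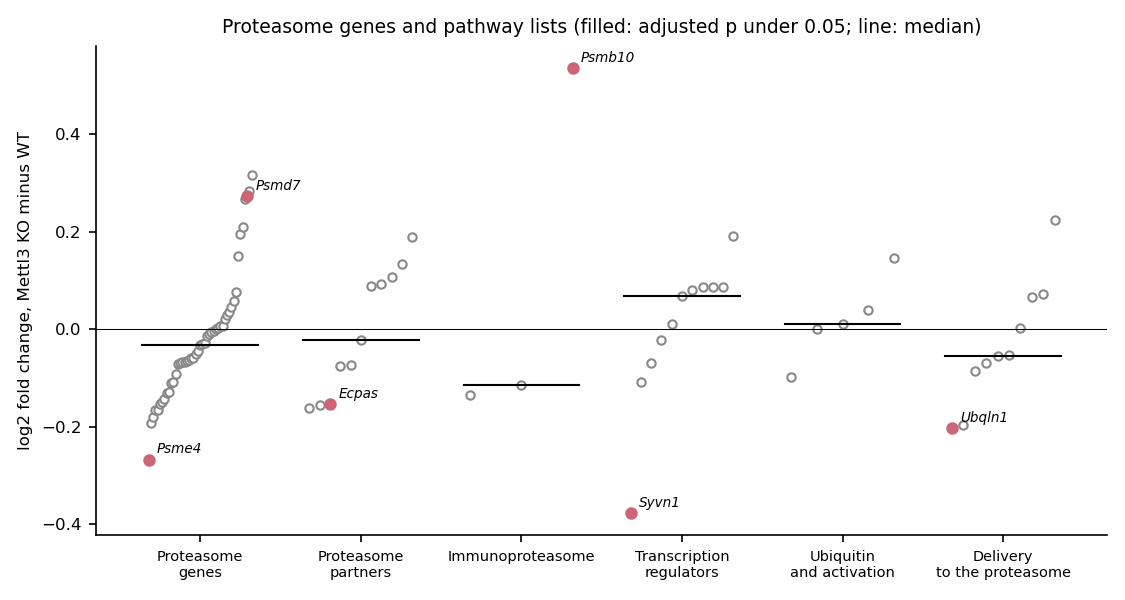
Log2 fold change (y axis, Mettl3 KO minus WT) of the 47 proteasome genes and the 40 tested genes of the pathway lists, 1 point per gene in ascending order within each list, filled for an adjusted p under 0.05, with lines at the medians. The filled points are Psmd7 and Psmb10 above 0 and Psme4, Ecpas, Syvn1 and Ubqln1 below 0.

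The normalized values summed to between 2839589 and 2916986 per library. The proteasome genes held 0.313% to 0.338% of them. Read totals before normalization were not analysed here. Markers of other cells also differed between the groups. Of 8 fibroblast markers 7 were called higher (summed level 3493 to 3883 in WT, 4398 to 5060 in Mettl3 KO hearts), and of 8 endothelial markers 4 were called lower (5172 to 5361 and 4466 to 4867). Cardiomyocyte markers, called in 0 of 7 cases by limma at an adjusted p under 0.05 and in 1 at an unadjusted p under 0.05, summed to 81690 to 88162 in WT, against 80686 to 90364 in Mettl3 KO hearts. Ttn made up most of these sums, with means of 71019.5 in WT and 72293.8 in Mettl3 KO hearts. Of 4 atrial markers 3 were called higher, with Bmp10 at 0 in all WT hearts and at 0, 195, 158 and 358 in Mettl3 KO hearts. The atrial sums were 570 to 629 in WT, against 471 to 1106 in Mettl3 KO hearts. Most of the WT sums was Kcnj3, the marker not called, at 532, 602, 616 and 593. Kcnj3 was at 438, 572, 566 and 565 in Mettl3 KO hearts (log2 fold change -0.14, adjusted p = 0.290 by limma). Of 8 macrophage markers 1 was called lower (1162 to 1424 and 1100 to 1318), and of 6 skeletal muscle markers none was called by limma, with 1 at an unadjusted p under 0.05 (1042 to 1159 and 1053 to 1228). Ckm and Acta1, with WT means of 847.75 and 243.75, made up most of the skeletal sums. Myh1, Myh2, Myh4 and Actn3 were low, with WT means of 9, 7.75, 3.75 and 0.75. Apart from the fits with the atrial covariate, the part of these cell types in the results for Psme4, Psmd7 and Psmb10 was not tested.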

How the data were processed

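Hearts of 4 WT and 4 Mettl3 KO mouse samples had been sequenced as stranded single-end total RNA libraries. According to the submitters' processing notes and the study's methods, reads were trimmed by the authors (Trimmomatic 0.39), mapped to mm39 (STAR 2.7.11a) and freed of duplicates (Picard 3.1.1) and of multi-mapping, ribosomal and mitochondrial reads. Exon reads were counted per strand (featureCounts 2.0.4), and the authors normalized the counts with DESeq2 1.36.0. Dropping multi-mapping reads lowers genes with near-identical copies. The deposited values are a score, normalized counts rounded to whole numbers, so tools for raw counts were not run. All 8 columns were matched to samples by title.

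Genes with a mean of at least 1 (20313 of 23045) entered a linear model of log2(value + 1) on genotype, without covariates (limma 3.58.1, R 4.3.3), whose variances were moderated towards a trend with the mean. This scale understates changes of low genes. Tests were two-sided, p was adjusted by Benjamini-Hochberg over all genes, and genes with an adjusted p under 0.05 were called. The fit was checked on simulated data. The proteasome genes, lists and alternatives were chosen with earlier results of these data known.

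Values per library are given for called genes, the 3 catalytic subunits, the genes with the highest and lowest fold change of each subcomplex and, in the lists, called genes, Nfe2l1, Nfe2l2 and the immunoproteasome. Psmd1, Psmd5, Psmd13 and Psme1 were added after their values were seen. Psmb11, on the list of beta subunits, had no row in the table and was not analysed here. Paaf1, Nfe2l3 and Ddi1 were not tested, and 2 genes of the pathway lists are not reported here and were left out of the counts. Gene locations are those of the table (mm39). Transcript lengths came from GENCODE M21 (GRCm38), matched by identifier for all 47 genes, and promoters from RefSeq (GRCm38.p6), matched by symbol. Alternatives were other filters, pseudocounts, scalings and variance models, the replicate number as a block, an atrial covariate (mean log2 level of Myl7, Sln, Bmp10 and Kcnj3) and each library left out in turn.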

Additional observations from a re-analysis of the deposited data

Results flagged for a closer look

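For the genes named by rule, Psmd1, Psmd13, Psme1 and the sums of subcomplexes, each group of 4 libraries was searched for a single library apart from the others, by the gap to its nearest neighbour as a share of the group's range and marked where it passed Dixon's critical value. Of 94 groups 6 were marked, and chance alone marks about 1 in 20, or 4.7. Psmb7 had a share of 0.923 in Mettl3 KO, with replicate 2 at 181 and the others at 155 to 157. Psmb8 had a share of 0.875 in Mettl3 KO, with replicate 1 at 60 and the others at 36 to 39. Psmd1 had a share of 1 in WT, with replicate 4 at 446 and the others all at 428. Nfe2l1 had a share of 0.854 in WT, with replicate 1 at 1260 and the others at 1301 to 1308. Ubqln1 had a share of 0.939 in WT, with replicate 3 at 341 and the others at 308 to 310. The summed activators and inhibitor had a share of 0.922 in WT, with replicate 2 at 2429 and the others at 2500 to 2506.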

How the results depend on the processing

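Under 18 alternatives no further proteasome gene was called, and the median log2 fold change of the 47 genes stayed between -0.05 and -0.02. Without a mean-variance trend 0 proteasome genes were called higher and 0 lower, with 321 of all genes called, against 1607. With the atrial covariate 0 were called higher and Psme4 stayed lower, with 932 of all genes called. That covariate overlaps with genotype, so a call lost with it cannot be told apart from lost precision. Leaving out single libraries gave 1019 to 1596 calls over all genes, and Psme4 and Psmd7 were called in all 8 of these fits. The causes were not tested. Same-numbered WT and Mettl3 KO libraries correlated at 0.0522, 0.0421, -0.0414 and 0.0878 in their deviations from the group means, so the numbers were not taken as pairs. With the replicate block 1346 genes were called, Psme4 and Psmd7 among them, and Syvn1 (adjusted p = 0.0525) and Ubqln1 (0.0648) were not.

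Of 576 values of 32 named genes, 523 kept direction and call, 25 lost the call and 28 changed sign, all of the last in genes that were never called. Scaled to the library total, by the upper quartile and by voom, Psmb4 was at -0.0086, -0.0078 and -0.0087, Psme2 at -0.0030, -0.0021 and -0.0012, and Psme3ip1 at -0.0033, -0.0025 and -0.0040. With the atrial covariate Psmd8 was at 0.0249, Psmb8 at 0.36 and Psmb9 at 0.45. The same covariate moved uncalled genes by over 1.5 times without turning them, among them Psmb5 to -0.0377, Psmb6 to -0.0375, Psmg1 to -0.0311, Psme1 to -0.11, Psmd13 to 0.26 and Psmg4 to 0.49. Leaving out single libraries gave -0.0084 to 0.0592 for Psma4, -0.0220 to 0.0410 for Psmb4, -0.0590 to 0.0272 for Psmc5, -0.0135 to 0.0488 for Psmd4, -0.0674 to 0.0750 for Psme2, -0.0141 to 0.0389 for Psme3ip1 and -0.36 to 0.0432 for Psmb9. Rounding of the deposited values limits genes with values under about 20, such as Psmg3 and Psme2b.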
